A study of Mus musculus with 6 samples.

Results

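The genes described here carry out mitosis, the stage of the cell cycle in which copied chromosomes are pulled apart and the cell divides. There are 39 of them, chosen by symbol as genes of the mitotic switch, the spindle checkpoint, the kinetochore, the spindle and cytokinesis. All 39 symbols matched a row of the deposited table of 55401 genes, and all 39 were among the 18277 genes tested.

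RNA was sequenced from F4/80+ cells, a macrophage fraction taken from tumours that Hepa 1-6 cells, a mouse hepatoma line, had formed in mice. In the Sms-OE group (3 libraries) the injected cells overexpressed Sms, the spermine synthase gene, by lentivirus; in the control group (3 libraries) they are labelled WT Control. In both groups the cells went into the right lobe of the liver, the tumours were taken on day 14 and no further treatment was given. The overexpression was therefore made in the injected tumour cells, not in the F4/80+ cells. The sources used here do not give strain, age or sex of the mice, nor whether each library came from its own mouse or the injected cells from 1 clone. The p-values therefore measure the spread among these 6 libraries, which may be partly technical.

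A cell enters mitosis when Cdk1, bound to cyclin A or cyclin B and a small Cks subunit, becomes active with the help of the Plk1 and Aurora kinases. The spindle checkpoint proteins then hold the anaphase-promoting complex back until every kinetochore is attached to microtubules, after which cyclins are destroyed, the chromosomes part and a contractile ring divides the cell. The transcripts of these genes peak late in the cell cycle of dividing cells and are kept low in resting ones, so in tissue RNA they serve as markers of proliferation, and macrophages in tissues can divide locally.

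Each library held 49833764 to 58154006 estimated counts in total, and a mitosis gene had 141 to 9271 counts in a library. Levels are given as CPM, counts scaled to the TMM-adjusted library size, for replicates 1, 2 and 3 in that order. Macrophage markers (8 genes, none at 0 in any library) summed to 6392, 5908 and 5353 CPM in Sms-OE libraries and 5574, 5474 and 5551 CPM in control libraries. Of these 8, Cd68 (log2 fold change -0.35 ± 0.092 SE, edgeR adjusted p = 0.0181) and C1qa (-0.45 ± 0.092, adjusted p = 0.00607) fell, Cd14 rose (0.73 ± 0.15, adjusted p = 0.00597) and the other 5 did not pass. Sms itself averaged 33.1 ± 0.15 CPM in Sms-OE and 26.9 ± 1.3 CPM in control libraries (SD, n = 3 each), a log2 fold change of 0.30 ± 0.094 SE (edgeR adjusted p = 0.0382). Haemoglobin transcripts took 0.0225, 0.485 and 0.512% of the counts in Sms-OE libraries, against 0.00441, 0.00934 and 0.0172% in control libraries, so Sms-OE replicates 2 and 3 stood apart from the other 4 libraries in that measure.

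Libraries of the F4/80+ fraction from Sms-OE tumours held less RNA of Stmn1, Mad2l1, Cks1b, Cdk1, Bub1 and other mitosis genes, and more of Mki67. The Mki67 rise was lost with offsets for transcript length and GC content (log2 fold change 0.01, edgeR adjusted p = 0.927). Of the 39 genes, 16 fell, 1 rose (Mki67) and 22 did not pass the test, which was edgeR's quasi-likelihood test with a Benjamini-Hochberg adjusted p under 0.05 over all 18277 genes, of which 2615 fell and 2293 rose. The fall called in 41% of the mitosis genes stands beside 14.3% of all genes tested, and the 1 rise beside 12.5% of all genes. Log2 fold changes (Sms-OE over control) of the mitosis genes ran from -1.01 for Bub1 to 0.37 for Mki67, with a median of -0.51, against a median of -0.00 over all genes; 35 of the 39 were below 0. In 22 of the 39 genes every Sms-OE library was below every control library, where 23.3% of all genes were so arranged. In bulk RNA such as this, fewer cells of a dividing type and less RNA per cell cannot be told apart.

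The number of falls depended on single libraries and on the scaling. With total counts as the only scaling, 10 mitosis genes fell, among 1788 falls and 2521 rises over all genes. The number was 18 without Sms-OE replicate 1, 9 without Sms-OE replicate 2 and 10 without Sms-OE replicate 3. It was 8 without control replicate 1, 10 without control replicate 2 and 15 without control replicate 3. In the same order, 13, 11.7, 9.22, 9.52, 8.78 and 9.63% of all genes tested fell in those fits. The median log2 fold change of the mitosis genes stayed between -0.61 and -0.35. Of the 16 falls, 8 held whichever library was left out: Cdk1, Cks1b, Bub1, Mad2l1, Spc25, Birc5, Stmn1 and Kif20a. Ccna2, Cdc20, Cdca8, Kif4, Nusap1, Kif20a and Prc1 overlap a coding gene on the opposite strand, and without a stated strand setting of the counting, reads of such pairs cannot be told apart.

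**Figure D1:**
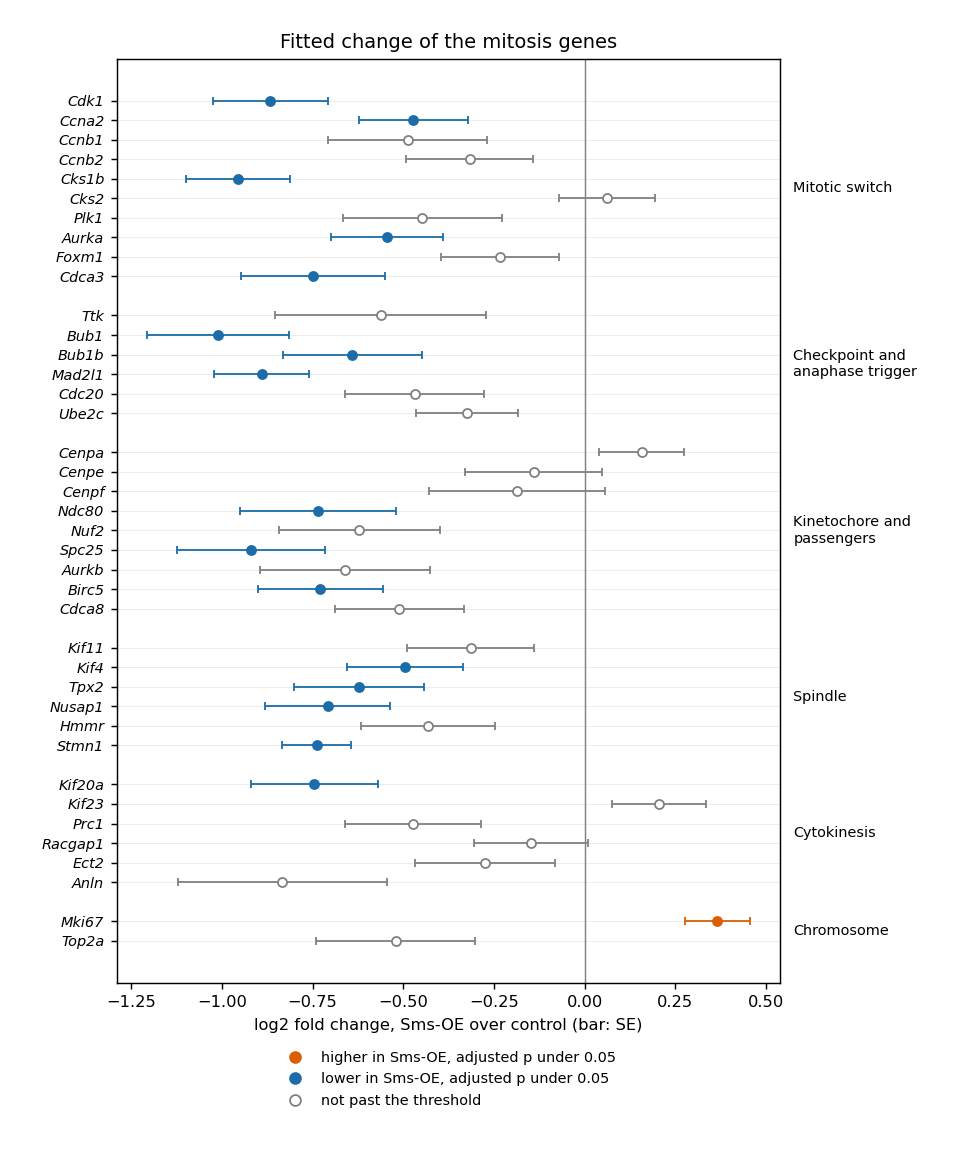
Log2 fold change (Sms-OE over control) of each of the 39 mitosis genes, grouped by role, with bars of 1 SE from the edgeR fit on 3 libraries per group; filled marks passed the test. The 16 falls lie between -1.01 (Bub1) and -0.47 (Ccna2), and Mki67 at 0.37 is the only rise.

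**Figure D2:**
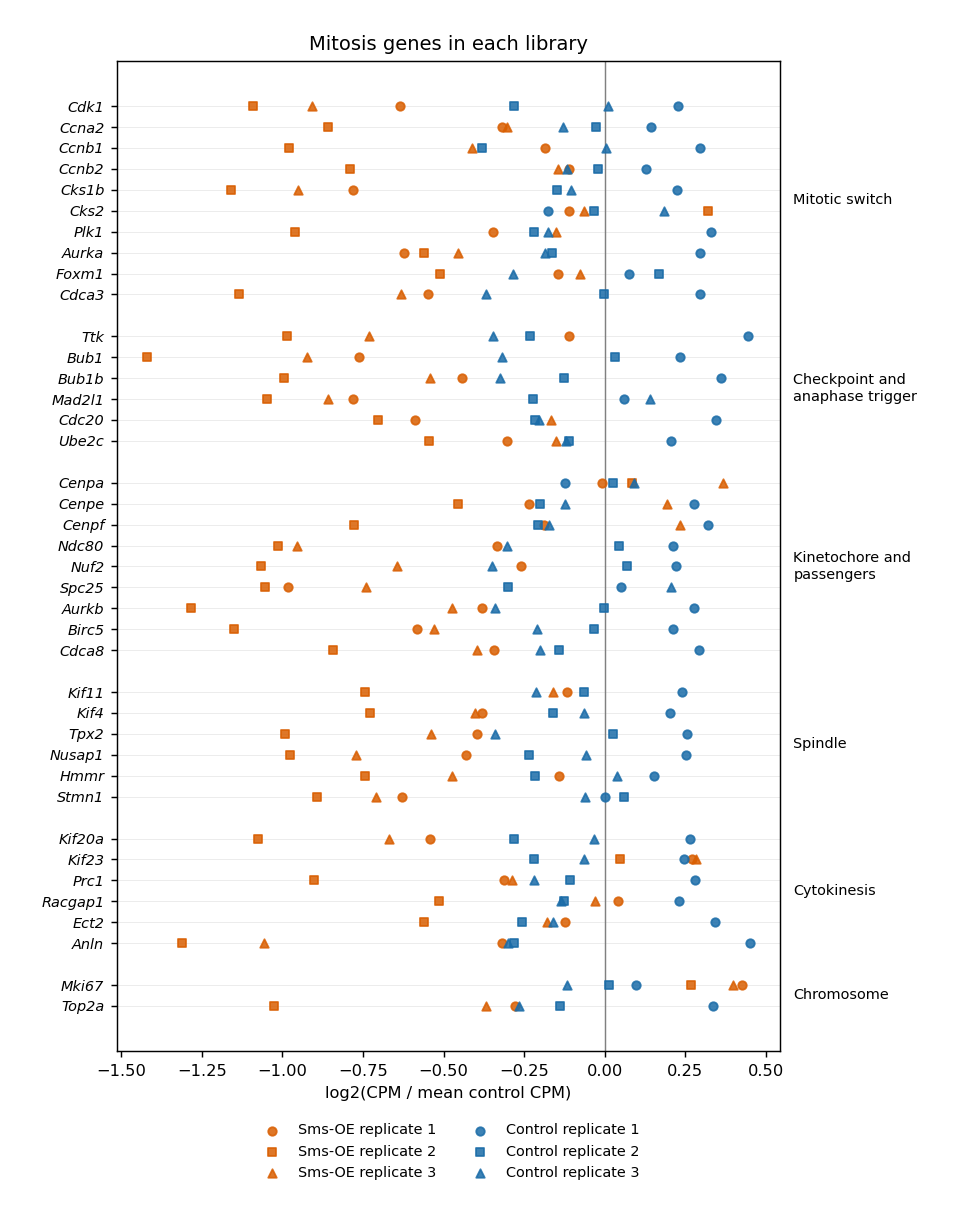
Log2 ratio of each gene's CPM in each library (orange for Sms-OE, blue for control, 1 shape per replicate number) to its mean CPM in the 3 control libraries, with 1 row per gene. The orange squares of Sms-OE replicate 2 lie farthest left in most rows (median -0.90) and the blue circles of control replicate 1 farthest right (median 0.24).

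The genes of the mitotic switch supplied 5 of the 16 falls, from 10 genes with a median log2 fold change of -0.48. Cks1b (GRCm38 chr3:89415472-89418383, minus strand), a small subunit that docks Cdk1 and its relatives onto phosphorylated targets, had 16.5, 12.7 and 14.6 CPM in the Sms-OE libraries, against 33.04, 25.6 and 26.3 CPM in the control libraries. Cdk1 (chr10:69335146-69352938, minus strand), the kinase that drives entry into mitosis, had 18.99, 13.9 and 15.7 CPM in the Sms-OE libraries, against 34.6, 24.3 and 29.7 CPM in the control libraries. In both genes the highest Sms-OE library was below the lowest control library. Cks1b fell 1.94-fold (log2 fold change -0.96 ± 0.14 SE, edgeR adjusted p = 0.00154) and Cdk1 1.82-fold (-0.87 ± 0.16 SE, edgeR adjusted p = 0.00378).

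The other falls among the switch genes were smaller. Cdca3, a trigger of mitotic entry that takes part in the destruction of the Wee1 kinase, had 14.1, 9.36 and 13.3 CPM in the Sms-OE libraries, against 25.2, 20.5 and 15.9 CPM in the control libraries (log2 fold change -0.75 ± 0.20 SE, edgeR adjusted p = 0.0196). Aurka, the Aurora kinase of the spindle poles, had 11.5, 12.01 and 12.9 CPM in Sms-OE and 21.7, 15.8 and 15.6 CPM in control libraries (-0.54, edgeR adjusted p = 0.0261). Ccna2, cyclin A2, had 31.1, 21.4 and 31.5 CPM in Sms-OE and 42.9, 38.1 and 35.5 CPM in control libraries (-0.47, edgeR adjusted p = 0.0418). All 3 genes had every Sms-OE library below every control library. Their calls rested on single libraries: without 1 library the adjusted p reached 0.0752 for Cdca3 (lost without Sms-OE replicate 2, control 1 or control 2), 0.0997 for Aurka (lost without any 1 Sms-OE replicate or control 1) and 0.133 for Ccna2 (lost without Sms-OE replicate 2 or any 1 control).

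The B-type cyclins and the factors that switch them on did not pass. Ccnb1 stood at 10.2 to 17.6 CPM in Sms-OE and 15.4 to 24.6 CPM in control libraries (log2 fold change -0.49, edgeR adjusted p = 0.128). Ccnb2 stood at 12.5 to 19.95 CPM in Sms-OE and 19.9 to 23.6 CPM in control libraries (-0.32, adjusted p = 0.215). In both cyclin genes the groups overlapped. The kinase gene Plk1 had 8.71 to 15.3 CPM in Sms-OE and 14.6 to 21.3 CPM in control libraries (-0.45, adjusted p = 0.161). Foxm1, the transcription factor of late cell cycle genes, had 11.7 to 15.8 CPM in Sms-OE and 13.7 to 18.7 CPM in control libraries (-0.23, adjusted p = 0.329). These groups overlapped too. Cks2, the close paralogue of Cks1b, had 63.6, 85.8 and 65.7 CPM in the Sms-OE libraries, against 60.9, 67.2 and 78.1 CPM in the control libraries. The Cks2 groups overlapped, with a log2 fold change of 0.06 ± 0.13 SE (edgeR adjusted p = 0.774). The near-identical copies Cks1brt and Ccnb1-ps are annotated separately from Cks1b and Ccnb1, so counts of these pairs are uncertain to the extent that reads were split between them.

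Of the 6 genes of the spindle checkpoint and its target, 3 fell, with a median log2 fold change of -0.60. Bub1, a kinase that marks unattached kinetochores, had 11.1, 7.03 and 9.91 CPM in the Sms-OE libraries, against 22.1, 19.2 and 15.1 CPM in the control libraries. Its fall of 2.01-fold (log2 fold change -1.01 ± 0.20 SE, edgeR adjusted p = 0.00488) gave the lowest log2 fold change of the 39 genes. Mad2l1 (chr6:66535390-66547220, plus strand), which encodes the Mad2 protein that binds and restrains Cdc20, had 17.4, 14.5 and 16.5 CPM in the Sms-OE libraries, against 31.1, 25.6 and 32.95 CPM in the control libraries. The Mad2l1 groups lay far apart beside their spread, 16.1 ± 1.5 CPM in Sms-OE and 29.9 ± 3.8 CPM in control libraries (SD, n = 3 each), with a log2 fold change of -0.89 ± 0.13 SE (edgeR adjusted p = 0.00137). Bub1b, the gene of BubR1, had 27.8, 18.9 and 25.9 CPM in Sms-OE and 48.5, 34.6 and 30.1 CPM in control libraries (-0.64 ± 0.19 SE, edgeR adjusted p = 0.0333); its groups did not overlap, but the call was lost without Sms-OE replicate 2 or 3 or without control 1 or 2 (adjusted p up to 0.114).

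The other 3 genes of this set did not pass. Ttk, the Mps1 kinase that starts checkpoint signalling, had 5.20, 2.83 and 3.38 CPM in the Sms-OE libraries, against 7.65, 4.78 and 4.42 CPM in the control libraries, and its groups overlapped (-0.56, edgeR adjusted p = 0.187). Cdc20, the activator of the anaphase-promoting complex, had 11.2 to 16.3 CPM in Sms-OE and 15.8 to 23.3 CPM in control libraries, again overlapping (log2 fold change -0.47, edgeR adjusted p = 0.0994). Ube2c, the ubiquitin-conjugating enzyme of that complex, had -0.32 (edgeR adjusted p = 0.119), although every Sms-OE library (18.7, 15.8 and 20.8 CPM) was below every control library (26.6, 21.4 and 21.2 CPM).

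Among the 9 kinetochore and chromosomal passenger genes 3 fell, and the median log2 fold change was -0.62. The Ndc80 complex, the arm of the kinetochore that grips microtubules, was covered by 3 of its subunits. Spc25 had 3.55, 3.37 and 4.19 CPM in the Sms-OE libraries, against 7.26, 5.69 and 8.08 CPM in the control libraries, a fall of 1.89-fold (log2 fold change -0.92 ± 0.20 SE, edgeR adjusted p = 0.00921). Ndc80 had 9.81, 6.12 and 6.38 CPM in Sms-OE and 14.3, 12.7 and 10.02 CPM in control libraries (-0.73 ± 0.21 SE, edgeR adjusted p = 0.0297), and Nuf2, its partner, had 10.4, 5.96 and 7.98 CPM in Sms-OE and 14.6, 13.1 and 9.81 CPM in control libraries (-0.62, adjusted p = 0.0628). The Ndc80 groups just failed to overlap, the Nuf2 groups overlapped, and the Ndc80 call was lost without Sms-OE replicate 2 or 3 or without control 1 or 2 (adjusted p up to 0.103).

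The chromosomal passenger complex, which corrects wrong attachments, was covered by its kinase Aurkb and the subunits Birc5 (survivin) and Cdca8 (borealin). Birc5 had 20.03, 13.5 and 20.8 CPM in the Sms-OE libraries, against 34.7, 29.3 and 25.9 CPM in the control libraries, and fell 1.66-fold (log2 fold change -0.73 ± 0.17 SE, edgeR adjusted p = 0.0125). Aurkb had 9.50 to 17.8 CPM in Sms-OE and 18.2 to 28.00 CPM in control libraries (-0.66, edgeR adjusted p = 0.0642), and Cdca8 had 10.8 to 15.2 CPM in Sms-OE and 16.8 to 23.7 CPM in control libraries (-0.51, adjusted p = 0.0566). Neither passed, though in both every Sms-OE library was below every control library.

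The centromere genes of the same group were not called and were nearer to 0. Cenpa, the histone H3 variant that marks centromeres and the gene of highest CPM in the group, had 37.2, 39.7 and 48.2 CPM in the Sms-OE libraries, against 34.3, 38.05 and 39.8 CPM in the control libraries. These groups overlapped, with a log2 fold change of 0.16 ± 0.12 SE (edgeR adjusted p = 0.361). Cenpe, a kinetochore motor, had 12.2 to 19.1 CPM in Sms-OE and 14.5 to 20.2 CPM in control libraries (-0.14, edgeR adjusted p = 0.632). Cenpf, a large kinetochore and nuclear matrix protein, had 7.47 to 15.1 CPM in Sms-OE and 11.1 to 15.98 CPM in control libraries (-0.19, adjusted p = 0.620), and both overlapped.

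Spindle genes fell in 4 of 6 cases, with a median log2 fold change of -0.56. Stmn1 (chr4:134468320-134473843, plus strand), a protein that destabilises microtubules and is inactivated by phosphorylation in mitosis, had 45.7, 38.1 and 43.1 CPM in the Sms-OE libraries, against 70.6, 73.5 and 67.7 CPM in the control libraries. The gap between the groups was wide beside their spread, 42.3 ± 3.9 CPM in Sms-OE and 70.6 ± 2.9 CPM in control libraries (SD, n = 3 each), and Stmn1 had the smallest p of the 39 genes (log2 fold change -0.74 ± 0.094 SE, edgeR adjusted p = 0.000723).

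Nusap1, which bundles spindle microtubules near chromosomes, had 15.5, 10.6 and 12.2 CPM in Sms-OE and 24.9, 17.7 and 20.04 CPM in control libraries (-0.71 ± 0.17 SE, edgeR adjusted p = 0.0141). Tpx2, the spindle assembly factor that activates Aurora A, had 27.96, 18.5 and 25.4 CPM in Sms-OE and 43.9, 37.4 and 29.04 CPM in control libraries (-0.62 ± 0.18 SE, edgeR adjusted p = 0.0284). Kif4, a motor of chromosome arms and the central spindle, had 9.94, 7.81 and 9.80 CPM in Sms-OE and 14.9, 11.6 and 12.4 CPM in control libraries (-0.50, edgeR adjusted p = 0.0434). The groups did not overlap in any of the 3, but none of these calls held on every removal of a library: Kif4 lost its call without any 1 of the 6 libraries (adjusted p 0.0542 to 0.155), Tpx2 without Sms-OE replicate 2 or 3 or control 1 or 2 (up to 0.104) and Nusap1 without Sms-OE replicate 3 or control 1 (up to 0.0559). Kif11, the motor that pushes spindle poles apart, did not pass, with 19.2 to 29.7 CPM in Sms-OE and 27.8 to 38.02 CPM in control libraries (-0.31, edgeR adjusted p = 0.220), nor did Hmmr, a spindle and hyaluronan receptor protein, with 6.75 to 10.2 CPM in Sms-OE and 9.72 to 12.6 CPM in control libraries (-0.43, adjusted p = 0.114).

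Of the 6 genes of the central spindle and cytokinesis 1 fell, with a median log2 fold change of -0.37. Kif20a, a motor that carries the passenger complex to the central spindle, had 17.3, 11.98 and 15.9 CPM in the Sms-OE libraries, against 30.3, 20.8 and 24.6 CPM in the control libraries, without overlap (log2 fold change -0.75 ± 0.17 SE, edgeR adjusted p = 0.0114). Anln, the contractile ring scaffold anillin, had 8.76, 4.40 and 5.26 CPM in the Sms-OE libraries, against 14.9, 8.99 and 8.87 CPM in the control libraries. The Anln estimate of -0.83 ± 0.29 SE was lower than that of Kif20a but had a wider error, and it did not pass (edgeR adjusted p = 0.0554). Prc1, which bundles the central spindle, had 11.4 to 17.4 CPM in Sms-OE and 18.2 to 25.8 CPM in control libraries (-0.47, edgeR adjusted p = 0.0887), also with every Sms-OE library below every control library.

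The partners that switch on the ring, the RhoA exchange factor gene Ect2 and the centralspindlin genes Kif23 and Racgap1, were nearer to 0. Kif23 had 42.9, 36.7 and 43.3 CPM in the Sms-OE libraries, against 42.2, 30.5 and 34.02 CPM in the control libraries, with overlapping groups (log2 fold change 0.20 ± 0.13 SE, edgeR adjusted p = 0.283). Racgap1 had 42.03, 28.6 and 39.98 CPM in Sms-OE and 47.9, 37.4 and 37.2 CPM in control libraries (-0.15, adjusted p = 0.531), and Ect2 had 8.01 to 10.8 CPM in Sms-OE and 9.88 to 14.98 CPM in control libraries (-0.27, adjusted p = 0.335), both with overlap.

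The 2 chromosome genes, both used as proliferation markers, stood on opposite sides of 0. Mki67, which coats mitotic chromosomes and keeps them apart, had 175, 156 and 171 CPM in the Sms-OE libraries, against 139, 131 and 119.8 CPM in the control libraries. It rose 1.29-fold (log2 fold change 0.37 ± 0.090 SE, edgeR adjusted p = 0.0146), with every Sms-OE library above every control library. Top2a, the topoisomerase that untangles sister chromatids, had 101, 60.2 and 95.03 CPM in the Sms-OE libraries, against 155, 111 and 102 CPM in the control libraries, with every Sms-OE library below every control library but no call (-0.52 ± 0.22 SE, edgeR adjusted p = 0.119). The ratio of Mki67 CPM to Top2a CPM was 1.72, 2.60 and 1.80 in the Sms-OE libraries, against 0.897, 1.18 and 1.18 in the control libraries, and the groups did not overlap. The Mki67 call was lost without control replicate 2 or control replicate 3 (adjusted p 0.0656 to 0.0689) and with offsets for transcript length and GC content (log2 fold change 0.01, adjusted p = 0.927).

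**Figure D3:**
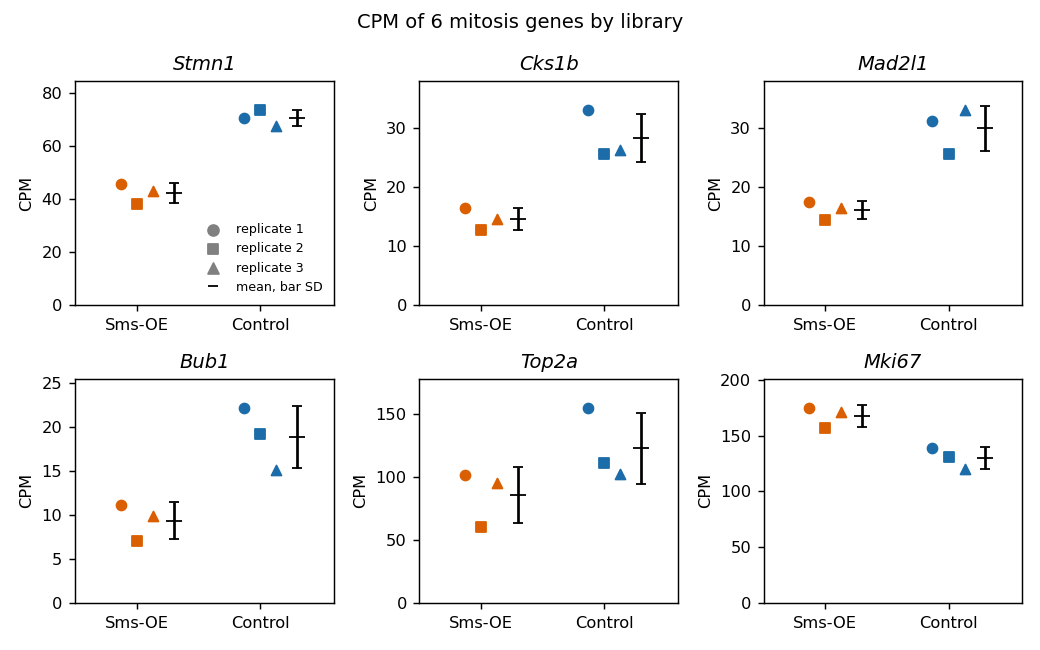
CPM of Stmn1, Cks1b, Mad2l1, Bub1, Top2a and Mki67 in each library, Sms-OE left of control, with the mean and SD of the 3 libraries. The first 4 genes fell without overlap, Top2a was lower without a call, and Mki67 was higher in all 3 Sms-OE libraries.

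The mitosis genes moved together from library to library within each group. Sms-OE replicate 2 was the lowest of its group for 36 of the 39 genes and the lowest of all 6 libraries for 34. Control replicate 1 was the highest of its group for 33 genes and the highest of all 6 libraries for 31. The order of libraries was not counted over all genes. The genes' summed level was 1007, 795 and 991 CPM in Sms-OE libraries, against 1332, 1098 and 1069 CPM in control libraries, without overlap. Without Mki67, the gene of highest CPM, the sums were 833, 639 and 819.7 CPM in Sms-OE and 1193, 967 and 949 CPM in control libraries.

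Other cell types' markers differed between the same libraries. The 10 hepatocyte markers summed to 392 to 601 CPM in Sms-OE libraries and 767 to 1009 CPM in control libraries, and 9 of the 10 fell. The 8 hepatoma markers summed to 52.4 to 72.03 CPM in Sms-OE libraries and 74.3 to 90.7 CPM in control libraries. Gpc3 and Rhox5 fell, while Afp, H19 and Igf2bp3 were tested and not called. Afp, the hepatoma marker of highest CPM, had 46.3 to 64.6 CPM in Sms-OE and 55.2 to 68.4 CPM in control libraries. Its groups overlapped (log2 fold change -0.13, edgeR adjusted p = 0.517). Igf2 and Dlk1 were at 0 in every library, and Peg3 was at 0 in Sms-OE replicate 1 and all controls. The dendritic cell markers summed to 49.2 to 57.3 CPM in Sms-OE libraries and 70.01 to 86.2 CPM in control libraries, with 3 of 7 lower and 1 higher. Like the mitosis genes, all 3 of these lists had every Sms-OE sum below every control sum. The 6 endothelial markers summed to 117, 152 and 128 CPM in Sms-OE libraries and 153, 139 and 147 CPM in control libraries; these sums overlapped, but Kdr (-1.53), Egfl7 (-1.26) and Stab2 (-0.64) fell, Cdh5 (0.79) rose, and the median log2 fold change of the 6 was -0.76.

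The T and NK cell, neutrophil and erythroid markers did not follow the mitosis genes across all 6 libraries. T and NK markers summed to 629, 463 and 653 CPM in Sms-OE libraries and 387, 464 and 603 CPM in control libraries, with 1 of 11 higher (Cd4). Neutrophil markers summed to 5336, 6071 and 4328 CPM in Sms-OE libraries and 5182, 6045 and 7736 CPM in control libraries, with 2 of 8 higher, the granule genes of young neutrophils Mpo and Elane. Erythroid markers summed to 217, 5051 and 5015 CPM in Sms-OE libraries and 43.3, 97.1 and 189 CPM in control libraries; none was called, and Slc4a1 was at 0 in Sms-OE replicate 1 and all controls. Stellate cell and fibroblast markers summed to 97.9 to 135 CPM in Sms-OE libraries and 65.2 to 83.2 CPM in control libraries, with 2 of 6 tested higher and Lrat at 0 in every Sms-OE library, and mitochondrial transcripts took 2.15 to 3.12% of counts in Sms-OE libraries and 4.99 to 7.13% in control libraries. Of the 7 B and plasma cell markers, at 29.04 to 35.9 CPM in Sms-OE libraries and 29.4 to 30.3 CPM in control libraries, none was called. Which cells carried the mitotic RNA was not measured, and the part of these cell types in the results was not tested.

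Removing the haemoglobin-rich Sms-OE replicates 2 and 3 left Sms-OE replicate 1 against 3 controls, with the lone library assumed to vary like the controls. Then 3 mitosis genes fell (Cks1b, Mad2l1 and Stmn1) and none rose, among 694 falls and 690 rises over all genes, and the median log2 fold change of the mitosis genes was -0.33. The mean log2 CPM of the hepatocyte and hepatoma markers was 2.36, 2.36 and 1.80 in Sms-OE libraries and 3.91, 4.14 and 4.50 in control libraries, without overlap. With that mean as a covariate edgeR called no gene. An unadjusted edgeR p under 0.05 was held by 1469 of the 18277 genes tested, both directions together. Among these genes were 18 of the 39 mitosis genes that were lower and none that was higher. Falls over all genes were not counted apart at that cut, so the 18 have no matching share beside them. The median log2 fold change of the mitosis genes was then -1.35, farther from 0 than without the covariate, and 38 of the 39 were below 0. Since the covariate separated the groups, its level and the group cannot be told apart in these 6 libraries, and the lost calls do not show where the mitotic RNA came from.

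Genes of neighbouring steps were counted in the same fit, in which 14.3% of all genes fell and 12.5% rose. Of 58 further mitosis genes tested, 18 fell (31%) and 1 rose (1.72%), with a median log2 fold change of -0.43. Cenpm (-1.26 ± 0.22 SE, edgeR adjusted p = 0.00268) and Oip5 (-1.51 ± 0.29 SE, adjusted p = 0.00494), both centromere genes, and Pbk, a mitotic kinase gene (-1.28 ± 0.25 SE, adjusted p = 0.00469), fell; Oip5 is the gene that overlaps Nusap1 on the opposite strand. Ckap2l, a mitotic spindle gene, had 31.4, 45.4 and 31.98 CPM in Sms-OE and 25.3, 20.4 and 20.9 CPM in control libraries, and was the 1 rise (0.71 ± 0.16 SE, edgeR adjusted p = 0.00904). The falls numbered 7 without control replicate 1 and 12 without control replicate 2, where 9.52 and 8.78% of all genes fell.

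Of 16 subunits and partners of the anaphase-promoting complex, 8 fell (50%, against 14.3% of all genes) and none rose (median -0.30). The smallest p-values were those of Anapc15 (-0.80 ± 0.13 SE, edgeR adjusted p = 0.00207), Anapc13 (-0.73 ± 0.14, adjusted p = 0.00394) and Anapc11 (-0.63 ± 0.13, adjusted p = 0.00578), with Anapc5 next (-0.40 ± 0.086, adjusted p = 0.00759). The count of falls was 5 without Sms-OE replicate 3, control 1 or control 3, and 4 without control 2. In the same order, 9.22, 9.52, 9.63 and 8.78% of all genes fell in those fits.

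Of 46 DNA replication and G1/S genes, 36 fell (78.3%) and none rose. Their median log2 fold change was -0.61, and they summed to 1331, 1067 and 1251 CPM in Sms-OE libraries, against 2007, 1743 and 1713 CPM in control libraries. Gins2, a subunit of the replicative helicase, had the smallest p (-1.34 ± 0.12 SE, edgeR adjusted p = 0.000187). It was followed by Fen1, the flap nuclease (-0.92 ± 0.12, adjusted p = 0.000849), while Rrm2, a subunit of the enzyme that makes deoxynucleotides, also fell (-0.89 ± 0.12, adjusted p = 0.000928). Sms-OE replicate 2 was again the lowest library and control replicate 1 the highest.

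The calls among regulators upstream stand beside 14.3% lower and 12.5% higher over all genes. Among 14 genes of the D-type cyclins, their kinases and the CDK inhibitors, 2 fell (14.3%) and 3 rose (21.4%), with a median log2 fold change of 0.02. Cdk6 rose (0.74 ± 0.11 SE, edgeR adjusted p = 0.00141, a call lost with offsets for transcript length and GC content) while Cdk4 fell (-0.66 ± 0.13 SE, edgeR adjusted p = 0.00444). The inhibitor Cdkn1a, the p21 gene, had 546, 819 and 627 CPM in Sms-OE and 445, 447 and 458 CPM in control libraries and rose (0.56 ± 0.14 SE, edgeR adjusted p = 0.0145), as did Cdkn2d (0.47 ± 0.11, adjusted p = 0.0102). Both inhibitor calls were lost without control replicate 2. In that fit 1 of the 14 genes rose, beside 1366 rises among 19183 genes tested. The number of falls was 1 without Sms-OE replicate 2 or control replicate 1, where 11.7 and 9.52% of all genes fell.

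Among 21 E2F, DREAM and MuvB genes, which repress or activate cell cycle promoters, 4 fell (19%) and 1 rose (4.76%), with a median of -0.15. Tfdp1 (-0.42 ± 0.090 SE, edgeR adjusted p = 0.00728), Mybl2, the B-Myb gene that works with Foxm1 on mitotic promoters (-0.72 ± 0.16, adjusted p = 0.00829), and E2f1 (-0.65 ± 0.15, adjusted p = 0.0111) fell, and Lin54, the MuvB subunit that binds DNA, rose (0.46 ± 0.12, adjusted p = 0.0191), a call lost without Sms-OE replicate 1, control 2 or control 3. Of 12 p53 targets (median 0.14), 3 rose (25%), namely Sesn2 (0.51 ± 0.10 SE, edgeR adjusted p = 0.00517), Mdm2 (0.54 ± 0.11, adjusted p = 0.00606) and Gadd45a (0.87 ± 0.19, adjusted p = 0.00907), and 2 fell (16.7%), Ei24 (-0.39 ± 0.095, adjusted p = 0.0131) and Bax. The p53 falls numbered 1 without Sms-OE replicate 3, control 1 or control 2, where 9.22, 9.52 and 8.78% of all genes fell.

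Without the haemoglobin-rich Sms-OE replicates 2 and 3, 18 of the 24 called genes with the smallest p in these 6 lists lost their calls; Anapc11, Cdk6, Gins2, Fen1 and Rrm2 were among those still called. That comparison held 1 Sms-OE library, and fewer genes were called in it over all genes too. Its lost calls therefore say little about any single list.

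**Figure D4:**
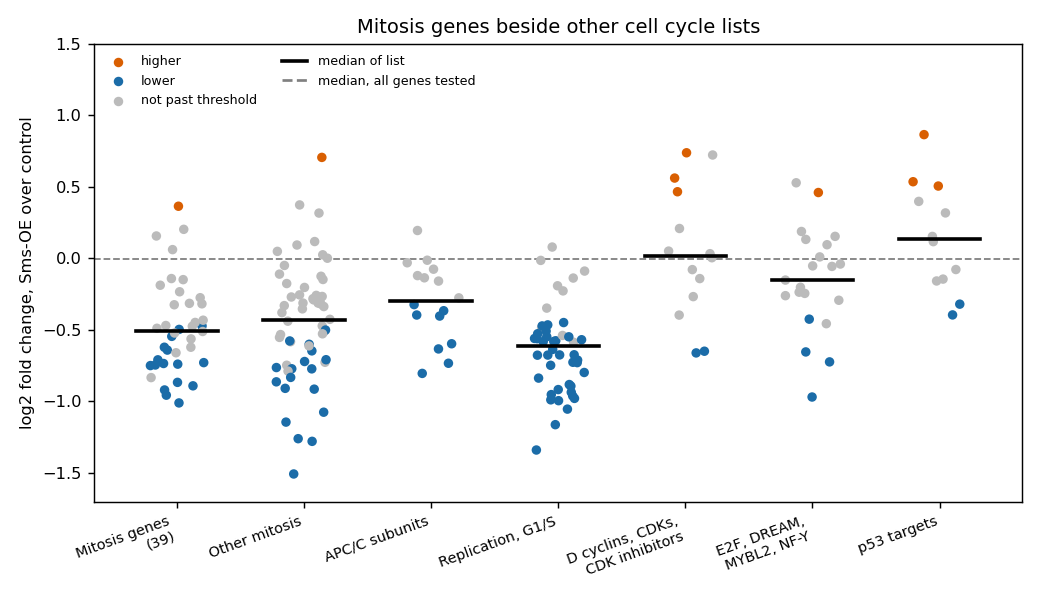
Log2 fold change (Sms-OE over control) of every tested gene of the 39 mitosis genes and of each neighbouring list, with the median as a bar. Medians run from -0.61 for the replication genes and -0.51 for the mitosis genes to 0.02 for the D-type cyclins and CDK inhibitors and 0.14 for the p53 targets.

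Transcript length moved with the fold change over all genes. In 4 equal bins of longest annotated transcript, the median log2 fold change of all genes tested was -0.14, -0.11, -0.01 and 0.19 in rising order of length. The mitosis genes, 4, 8, 15 and 12 of them in those bins, had medians of -0.53, -0.52, -0.56 and -0.41, below that of all genes in each bin. With offsets for length and GC content, 12 mitosis genes fell, against 9.66% of all genes, and their median was -0.42. The falls of Ccna2 (adjusted p = 0.120), Aurka (0.208), Cdca3 (0.103) and Spc25 (0.0508) were no longer called.

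With those offsets Mki67 lost its call and Cks2 gained one. Mki67, whose longest transcript has 10061 bases, had a log2 fold change of 0.01 ± 0.074 SE with the offsets (edgeR adjusted p = 0.927). Cks2, whose longest transcript has 692 bases, had 0.48 ± 0.10 SE and was called higher (edgeR adjusted p = 0.00798). Stmn1 remained lower at a smaller size (-0.38, adjusted p = 0.0408), as did Cks1b (-0.57, adjusted p = 0.0400), while Mad2l1 stood at -1.09.

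Per length of the longest transcript, as TPM, the order of levels differed from that by CPM. Cks2 stood at 242 in Sms-OE and 193 in control libraries, Stmn1 at 94.1 in Sms-OE and 131 in control, Cks1b at 40.6 in Sms-OE and 65.9 in control, Top2a at 38.9 in Sms-OE and 46.7 in control, and Mki67 at 39.2 in Sms-OE and 25.5 in control. Cenpf was among the lowest, at 2.41 in Sms-OE and 2.28 in control. TPM was scaled to each library's length-normalised total, not to the TMM-adjusted library size. Differences between the groups in TPM are therefore not those of the fit. By mean CPM, Cenpf stood on the other side, at 11.2 in Sms-OE and 12.8 in control libraries. The longest annotated transcript is not always the one expressed, so these levels are approximate.

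**Figure D5:**
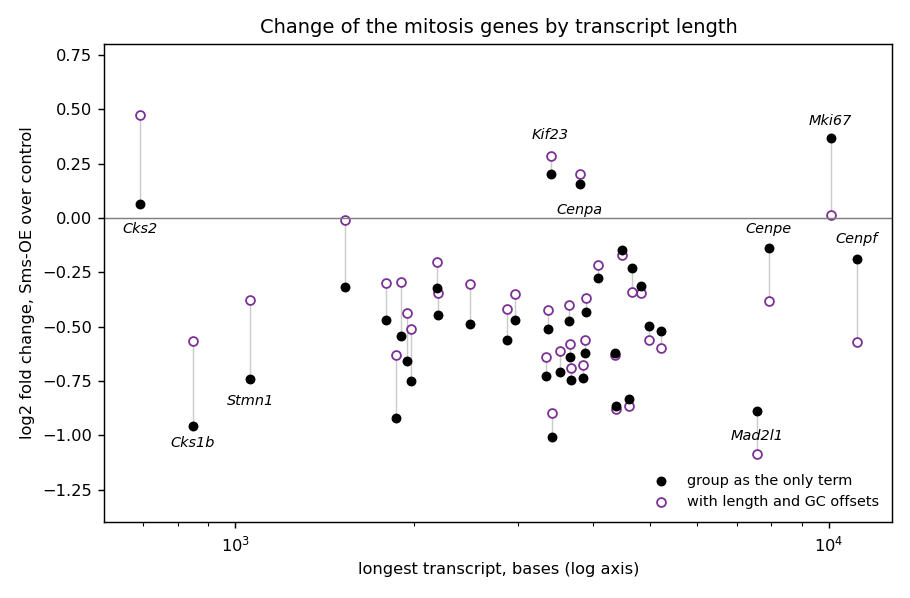
Log2 fold change (Sms-OE over control) of the 39 mitosis genes against the length of the longest annotated transcript on a log axis, without and with offsets for length and GC content. Mki67 stands at 0.01 and Cks2 at 0.48 with the offsets, while the median of the 39 genes is -0.51 without and -0.42 with them.

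Promoter letters are shown for the genes because 35 of them had log2 fold changes below 0, and the cell cycle homology region (CHR) and CCAAT boxes are the elements known from mitotic promoters. RefSeq promoters of build GRCm38.p6 (250 bases before to 50 after the start) were found for 33 of the 39 genes. The CHR letters searched were TTTGAA and TTTAAA, on both strands (TTCAAA and TTTAAA on the other), and those of the CCAAT box were CCAAT on both strands (ATTGG on the other). Matches were counted per gene, and a match in any of a gene's promoters counted. A CHR match was held by 28 of the 33 genes (84.8%), against 30.6% of all 27025 genes with a promoter. A CCAAT match was held by 27 (81.8%), against 41.1%. At least 2 CCAAT matches were held by 20 of 33 (60.6%), against 13.3% of all. Both elements were held by 25 of 33 (75.8%), against 13.4%, not always in the same promoter where a gene had several. In Cdca8 a CCAAT match shared letters with a CHR match, and in Ube2c 2 CCAAT matches shared letters with each other. The letters TTCCCGC, on either strand, were held by none of the 33 genes and by 5.29% of all genes with a promoter.

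The elements lay in promoters of genes that fell and of genes that did not. A CHR match was held by 9 of 12 genes that fell, against 19 of 21 of the other genes, and a CCAAT match by 8 of 12, against 19 of 21. Mad2l1 and Nusap1, which fell, and Nuf2 had neither match in the window. The promoters of Cks1b, Cdk1 and Spc25 are the 3 with the smallest p among genes that fell and hold a CHR match. That of Mki67, chosen after its values were seen, is shown beside them because it holds the same elements and its gene rose. CHR and CCAAT matches are in capitals, read 5′ to 3′ along the gene:
Cks1b (chr3:89418242-89418541, minus strand): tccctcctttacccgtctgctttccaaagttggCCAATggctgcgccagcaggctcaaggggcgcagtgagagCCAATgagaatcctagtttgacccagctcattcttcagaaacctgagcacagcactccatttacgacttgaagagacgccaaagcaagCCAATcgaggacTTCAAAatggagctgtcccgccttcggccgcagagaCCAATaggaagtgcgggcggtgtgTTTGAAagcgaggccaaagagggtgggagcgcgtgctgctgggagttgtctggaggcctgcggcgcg
Cdk1 (chr10:69352863-69353162, minus strand): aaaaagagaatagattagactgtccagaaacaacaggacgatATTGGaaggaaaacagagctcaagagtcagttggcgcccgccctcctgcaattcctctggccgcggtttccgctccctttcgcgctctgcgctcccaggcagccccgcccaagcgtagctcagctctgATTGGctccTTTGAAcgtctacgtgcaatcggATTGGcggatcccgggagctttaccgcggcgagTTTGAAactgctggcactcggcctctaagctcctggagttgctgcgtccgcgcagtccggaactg
Spc25 (chr2:69206164-69206463, minus strand): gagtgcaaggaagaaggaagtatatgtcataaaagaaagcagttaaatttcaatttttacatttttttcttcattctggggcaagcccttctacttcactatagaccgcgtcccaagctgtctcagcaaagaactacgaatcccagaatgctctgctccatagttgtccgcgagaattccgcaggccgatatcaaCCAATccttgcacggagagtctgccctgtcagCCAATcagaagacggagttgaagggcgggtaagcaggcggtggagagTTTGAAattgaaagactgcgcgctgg
Mki67 (chr7:135716330-135716629, minus strand): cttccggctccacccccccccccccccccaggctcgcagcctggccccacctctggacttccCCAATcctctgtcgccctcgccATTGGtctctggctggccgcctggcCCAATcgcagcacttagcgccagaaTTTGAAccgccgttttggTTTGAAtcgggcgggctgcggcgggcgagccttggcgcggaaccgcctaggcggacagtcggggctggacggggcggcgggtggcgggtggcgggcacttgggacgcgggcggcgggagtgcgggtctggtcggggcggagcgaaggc

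In Cks1b 4 CCAAT boxes spread over the window and a TTTGAA began 17 bases before the start. In Cdk1 the same TTTGAA letters began 71 and 15 bases before the start, next to boxes on the other strand at 80 and 48. Spc25 had its boxes 55 and 23 bases before the start and its TTTGAA 24 bases after it. Mki67 had TTTGAA 116 and 98 bases before the start and 3 boxes farther out, and the promoter of the gene that rose thus held the same elements as those of the genes that fell. A match is a run of letters, not a measured binding site.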

How the data were processed

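The deposited table held estimated counts per gene for 6 libraries, as whole numbers. Per the labels' protocols, polyadenylated RNA was captured on oligo(dT) beads and libraries were strand-marked with dUTP and UDG. The tools listed in the submitters' processing notes are DESeq2, StringTie 2.1.6, HISAT2 2.2.1, FastQC 0.11.9 and cutadapt 1.9; neither a genome build nor an annotation or strand setting is given in the sources used here. In each library more genes stood at 4 counts than at 2, 3 or 5 (in control replicate 1, 1008 genes against 741, 580 and 352), so small counts are not plain read tallies. Here symbols, coordinates, lengths and GC content came from GENCODE M21 (GRCm38), which named 55141 of 55401 rows. edgeR 4.0.16 in R 4.3.3 filtered genes by group (filterByExpr), scaled by TMM and ran the robust quasi-likelihood test of Sms-OE against control with no covariate, adjusted by Benjamini-Hochberg over 18277 genes (threshold 0.05). Each SE is the log2 fold change divided by the root of F. On simulated data with known changes, the same steps missed most changes of about the size of the mitosis genes' median, and in the draw used the share of false calls was above the threshold. All 39 genes are named; in other lists, up to 4 called genes with the smallest p, apart from an item that is not reported here. The members and lists were chosen with earlier results of these data known. Alternatives changed the scaling, filter, test (DESeq2 1.42.0, limma 3.58.1 voom), covariates and libraries. Libraries of a group shared at most 17.3% identical counts.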

Additional observations from a re-analysis of the deposited data

How the results depend on the processing

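Across all alternatives the median log2 fold change of the mitosis genes stayed below 0, and 16 or 17 of them were lower under RLE factors, without a low-count filter, with a CPM of at least 1 in 3 libraries, under limma-voom, without the robust step and without mitochondrial and haemoglobin genes. Over all genes tested, 13.4, 8.75, 17.6, 15, 14 and 14.3% fell in those fits, in that order. DESeq2 called 21 mitosis genes lower (15.5% of all genes) and upper-quartile factors 14 (12.8%). Offsets for length and GC content gave 12 (9.66%) and total counts alone 10 (9.78%). Leaving out 1 library in turn gave 3050 to 4488 genes called, 1684 to 2473 lower and 1366 to 2015 higher, 8 to 18 mitosis genes lower and 0 to 1 higher (0 without control replicate 2 or 3). Without the haemoglobin-rich Sms-OE replicates 2 and 3, 1384 genes were called, 694 lower and 690 higher, with 3 mitosis genes lower and 0 higher, and 18 of 24 named genes of the other lists lost their calls. With the hepatocyte and hepatoma covariate, 0 genes were called by edgeR, 0 lower and 0 higher (1469 at an unadjusted p under 0.05), so 0 mitosis genes were lower and 0 higher; their median was -1.35 with 38 of 39 below 0, Mki67 stood at -0.058 and Anapc11 at 0.048. Each other gene named as called also lost its call with that covariate; Cdk6 and Ei24 lost theirs with length and GC offsets, and Ei24 with total counts alone. The cause of these changes was not tested. The replicate numbers showed no clear pairing of the libraries. Deviations of same-numbered libraries correlated at 0.065, 0.020 and -0.0075, the first being the highest of all pairs compared. Sms-OE replicate 2 correlated best with control replicate 3 (0.044). Correlations this small cannot exclude a pairing. With the replicate block 22 mitosis genes were lower and 1 higher, against 13.2% of all genes lower. With the block together with length and GC offsets, chosen after seeing the data, 14 were lower, against 9.73% of all genes. Stmn1, Ccna2, Aurka, Cdca3 and Mki67 lost their calls in that fit, and Cks2, Anln and Top2a gained theirs. At 3 libraries a group, an exact permutation test of 1 gene cannot go below p = 0.1, so single genes rest on the spread shared across all genes.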
